A study of Mus musculus with 9 samples.

Results

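The 8 genes described here carry out antigen presentation by major histocompatibility complex (MHC) class II. H2-Aa, H2-Ab1, H2-Eb1, Cd74, H2-DMa, H2-DMb1, H2-DMb2 and Ciita were chosen by their symbols, and all 8 are among the 24008 genes listed for liver RNA from mice with diet-induced nonalcoholic steatohepatitis (NASH). The 9 livers came from 3 mice in each of 3 groups, with 1 library per mouse, and all mice had been fed a diet high in fat and carbohydrate. Flox mice had the genotype WT, F4MKO mice lacked IRF4 in skeletal muscle, and F4MKO+FSTL1 mice had the same knockout with overexpression of FSTL1. In the study's methods the deletion is driven by Myl-Cre, FSTL1 is carried by an adeno-associated virus with the muscle promoter MCK, and a GFP virus was given to the other 2 groups, although the labels name no vector. The labels give neither age nor sex. The comparisons address how loss of IRF4 in muscle, and return of the muscle-secreted protein FSTL1, relate to these transcripts in the liver.

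An MHC class II molecule is a pair of chains that holds a peptide on the cell surface and shows it to helper T cells. Cd74, the invariant chain, fills the groove of newly made molecules and guides them to endosomes, where cathepsins trim it and the H2-DM pair exchanges its remnant for an antigen peptide. Ciita is the co-activator that switches the whole group on, and it docks on factors bound to the S, X and Y boxes in front of the class II genes. In the liver these genes are used mainly by dendritic cells, B cells, Kupffer cells and recruited macrophages, and much less by hepatocytes.

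The class II genes lie together in the MHC on chromosome 17 (GRCm38/mm10), and Cd74 and Ciita lie elsewhere. H2-DMa (chr17:34119541-34139101), H2-DMb2 (chr17:34143307-34151555), H2-DMb1 (chr17:34153072-34160230), H2-Ab1 (chr17:34257689-34269419) and H2-Eb1 (chr17:34305867-34316674) are on the plus strand, and H2-Aa (chr17:34282744-34287823) is on the minus strand. Ciita is at chr16:10480059-10528418 on the plus strand, and Cd74 is on a further chromosome. Annotated genes overlap 4 of the 8. H2-DMa overlaps Brd2 and 3 non-coding or pseudogene models, H2-Eb1 overlaps the antisense gene Gm20513, Ciita overlaps Dexi on the opposite strand, and Cd74 contains a microRNA. The transcripts of H2-DMb1 and H2-DMb2 have 72 windows of 150 bases in common, and no other pair of members had any. The use of strand and the handling of reads that match several places are not given in the sources used here.

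Stretches before the RefSeq start of 3 members are printed because they hold letters of the boxes that Ciita's partner factors bind. RefSeq stretches from 250 bases before to 50 bases after the annotated start (GRCm38.p6) were found for 5 members, with 2 starts for H2-DMa. H2-Ab1, Cd74 and Ciita had no entry. Capitals mark GATGATG (part of the X box) or TGACGTC (part of the X2 box, a cyclic AMP response element) and then GATTGG (the Y box core, an inverted CCAAT). The letters were chosen with these stretches in view, and each is printed 5′ to 3′ on the strand of its gene.
H2-Aa (chr17:34287855-34287909): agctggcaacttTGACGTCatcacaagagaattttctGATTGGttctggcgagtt
H2-Eb1 (chr17:34305770-34305824): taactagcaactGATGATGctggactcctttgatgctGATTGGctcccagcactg
H2-DMb2 (chr17:34145120-34145175): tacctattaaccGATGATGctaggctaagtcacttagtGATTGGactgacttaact
The RefSeq starts of H2-DMb1 and H2-DMb2 lie inside the GENCODE gene models given above. The stretch of H2-DMb2 is in an intron of an annotated transcript of that gene, and the stretch of H2-DMb1, in an annotated 5′ untranslated exon, is not printed. The elements stand 18 bases apart in H2-Aa and H2-Eb1 and 19 bases apart in H2-DMb1 and H2-DMb2. The Y box core ends 43 bases before the annotated start of H2-Aa, 54 before that of H2-Eb1, 56 before that of H2-DMb1 and 85 before that of H2-DMb2. On either strand, GATGATG was in 3.48%, TGACGTC in 3.21% and GATTGG in 16.1% of the 32851 promoter stretches of the same length. A pair of them in this order, with 10 to 25 bases between, was in 27 stretches (0.0822%), and 4 of the 27 belonged to these members. Neither stretch of H2-DMa held such a pair.

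Gene counts summed to 20656976 in the shallowest library and 24322984 in the deepest, and 14379 genes had enough counts to be tested with edgeR, 6 of the 8 members among them. H2-DMb1, with 1 to 17 counts per library, and H2-DMb2, with 0 to 11, did not pass the filter on low counts. Values are given as CPM, gene counts scaled to a common library size by the TMM method, with SD over 3 mice. A gene was called at a Benjamini-Hochberg adjusted p under 0.05 over all tested genes together with a fold change above 1.5. Liver markers were present in every library, with 8 hepatocyte genes summing to between 66800 and 97700 CPM. Liver counts of Irf4 are no check of a deletion in muscle. They were 92 to 132 in 8 libraries and 10 in F4MKO+FSTL1 replicate 1. For F4MKO+FSTL1 compared with F4MKO, the changes of Ciita, Cd74, H2-Aa and H2-Eb1 are given with and without that library. Most other values of that group are given only with it. Liver counts do not check overexpression from a muscle promoter either. Fstl1 was at 6.15, 7.62 and 6.52 CPM in Flox, 16.1, 9.80 and 11.3 in F4MKO, and 5.33, 3.22 and 4.33 in F4MKO+FSTL1 livers. It was lower without overlap in F4MKO+FSTL1 than in F4MKO (log2 fold change -1.53, adjusted p = 0.00171 by edgeR), and its part in the values below was not tested. The study reported by QPCR that Fstl1 RNA in liver did not change after the injection, unlike the counts here.

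Cd74, on the plus strand at chr18:60803848-60812652, made up most of the class II signal, from 79.4% to 87.8% of the summed CPM of the 8 members in each library. Per kilobase of annotated exon, its mean level over the 9 libraries was 155 CPM per kb, followed by H2-Ab1 (6.49), H2-Eb1 (5.74), H2-Aa (3.91), Ciita (0.396), H2-DMa (0.344), H2-DMb1 (0.166) and H2-DMb2 (0.0462). The step from Cd74 to H2-Ab1 was 23.9-fold and was seen in 9 of 9 libraries, as was the step from H2-Aa to Ciita. The order of the 3 classical chains was not stable. H2-Ab1 exceeded H2-Eb1 in 7 of 9 libraries and H2-Eb1 exceeded H2-Aa in 6 of 9 libraries, so these neighbours did not differ beyond their spread. Ciita and H2-DMa did not differ beyond it either, with Ciita higher in 6 of 9 libraries.

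**Figure D1:**
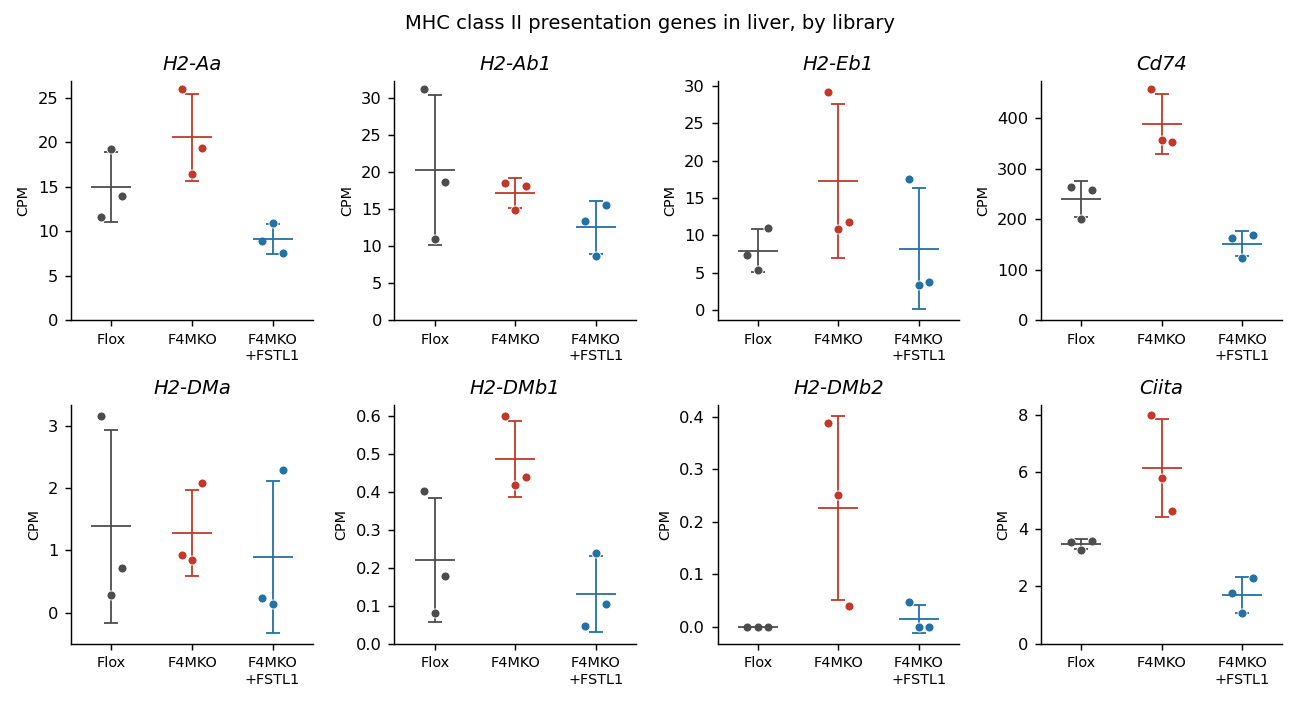
CPM of each of the 8 class II genes (vertical axis, linear, a separate scale per panel) in the 3 groups; each point is 1 library, replicates 1 to 3 from left to right, and the line and bars are the mean and SD of 3 mice. Cd74 and Ciita are highest in all 3 F4MKO libraries and lowest in all 3 F4MKO+FSTL1 libraries, and H2-DMa has 1 high library in each group.

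In F4MKO livers, Cd74 and Ciita stood above Flox livers in every library, but neither passed the threshold in this fit. Cd74 was at 263, 199.8 and 258 CPM in the Flox libraries and at 457, 357 and 352 CPM in the F4MKO libraries. The groups did not overlap, and the log2 fold change was 0.69 (standard error, SE, 0.16; adjusted p = 0.0776 by edgeR's quasi-likelihood test, n = 3 mice per group). Ciita was at 3.57, 3.28 and 3.59 CPM in Flox and at 7.99, 5.78 and 4.63 CPM in F4MKO libraries. The lowest F4MKO value was again above the highest Flox value, and the log2 fold change was 0.82 (SE 0.25, adjusted p = 0.152 by the same edgeR test). The F4MKO spread of Ciita, 1.71 CPM (SD, n = 3), was wider than that of Flox, 0.175 CPM.

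Of the 6 tested members 0 were called in F4MKO compared with Flox by edgeR, against 39 of 14379 tested genes (0.271%). An unadjusted p under 0.05 was found for 2 of the 6 and for 2424 of the 14379. The 2 members whose groups did not overlap can be read against 11.7% of all tested genes that were higher in F4MKO without overlap. With DESeq2, 1 member was called, which was Cd74 (log2 fold change 0.69, adjusted p = 0.00293). With no filter on low counts in edgeR, Cd74 (adjusted p = 0.00599) and H2-DMb2 were called. The call of Cd74 in this comparison therefore changed between settings, and its log2 fold change lay between 0.56 and 0.76 over the 9 fits that left out 1 library.

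None of the 3 classical chains was called between F4MKO and Flox livers by edgeR or DESeq2. H2-Aa, the alpha chain of I-A, was at 11.6, 19.3 and 13.9 CPM in Flox and at 25.9, 16.4 and 19.3 CPM in F4MKO libraries (log2 fold change 0.46, 95% interval -0.0025 to 0.93). H2-Ab1, the beta chain of the same molecule, was at 31.2, 11.0 and 18.7 CPM in Flox and at 18.5, 14.9 and 18.2 CPM in F4MKO libraries (log2 fold change -0.24, 95% interval -0.92 to 0.44). H2-Eb1, the beta chain of I-E, was at 7.45, 5.41 and 11.1 CPM in Flox and at 29.2, 10.8 and 11.8 CPM in F4MKO libraries (log2 fold change 1.12, 95% interval -0.13 to 2.38). The groups overlapped for all 3 genes, and their adjusted p-values by edgeR were 0.299, 0.743 and 0.346. F4MKO replicate 1 was the highest F4MKO library for each, and without it the log2 fold change of H2-Eb1 was 0.52.

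**Figure D2:**
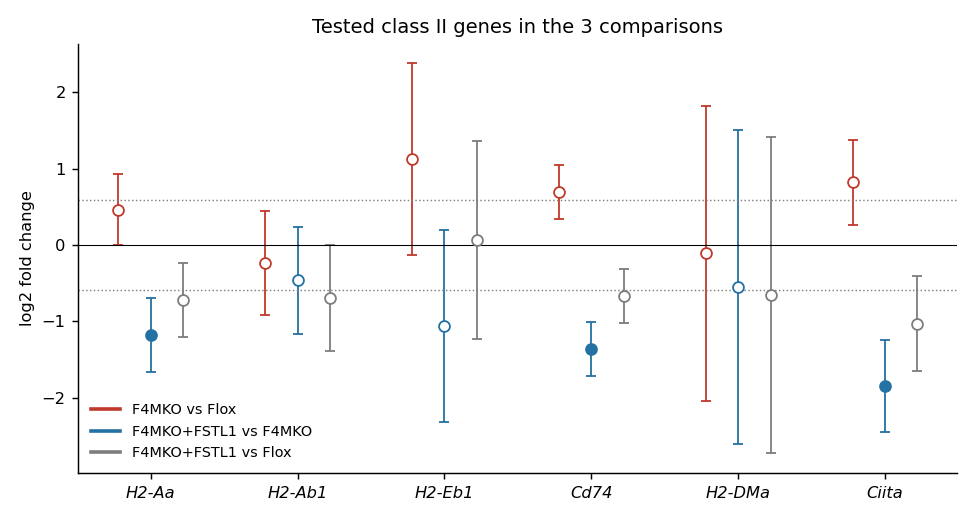
Log2 fold change (vertical axis) of the 6 tested class II genes in the 3 comparisons, in the colours of the key, with 95% intervals from the edgeR fit; filled points passed the threshold and dotted lines mark a fold change of 1.5. Only H2-Aa, Cd74 and Ciita in F4MKO+FSTL1 compared with F4MKO are filled, at -1.18, -1.36 and -1.85.

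Ciita, Cd74 and H2-Aa fell in F4MKO+FSTL1 livers when set against F4MKO livers. Ciita, the co-activator of the group, was at 1.78, 1.06 and 2.30 CPM in F4MKO+FSTL1 libraries, all below the 4.63 to 7.99 CPM of F4MKO. Its log2 fold change was -1.85 (SE 0.28, adjusted p = 0.00184 by edgeR's quasi-likelihood test), a 3.60-fold lower level. Cd74 was at 162, 123 and 168 CPM, below all F4MKO libraries, and the log2 fold change was -1.36 (SE 0.16, adjusted p = 0.00107 by edgeR), or 2.58-fold lower. H2-Aa was at 8.83, 10.9 and 7.57 CPM, also without overlap, and the log2 fold change was -1.18 (SE 0.22, adjusted p = 0.0045 by edgeR), or 2.26-fold lower. These 3 were called in each of the 9 fits that left out 1 library, with adjusted p-values up to 0.0104 for Ciita, 0.00761 for Cd74 and 0.0205 for H2-Aa. Without F4MKO+FSTL1 replicate 1, the library low in Irf4, their log2 fold changes were -1.88 for Ciita, -1.41 for Cd74 and -1.15 for H2-Aa. DESeq2 called the same 3 members. A test against a fold change of 1.5 kept Ciita and Cd74 and lost H2-Aa.

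The 3 called members are 3 of 6 tested, beside 14.4% of all tested genes called in this comparison and 11.2% called lower. All 6 had a negative log2 fold change, with a median of -1.12 beside 0.011 over all tested genes. Groups did not overlap, with F4MKO+FSTL1 lower, for 3 of the 6 members and for 21.1% of all tested genes. A lower share of the cells that carry these transcripts and less RNA in each such cell cannot be told apart in whole liver.

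H2-Ab1 and H2-Eb1 did not pass the threshold beside H2-Aa. H2-Ab1 was at 13.5, 8.60 and 15.5 CPM in F4MKO+FSTL1 libraries, and the highest of these lay above the lowest F4MKO library (log2 fold change -0.46, 95% interval -1.16 to 0.24, adjusted p = 0.328 by edgeR). H2-Eb1 was at 17.6, 3.36 and 3.81 CPM, so that replicate 1 stood within the F4MKO range and the other two below it (log2 fold change -1.06, 95% interval -2.32 to 0.20, adjusted p = 0.209 by edgeR). Without F4MKO+FSTL1 replicate 1, the library with 10 counts of Irf4, the log2 fold change of H2-Eb1 was -2.27 and it was called (adjusted p = 0.0121 by edgeR). The call on H2-Eb1 was thus decided by that library. Its 95% interval with all libraries includes the change found for H2-Aa, so a difference between these chains was not shown.

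The H2-DM genes, which encode the peptide exchanger of endosomes, were near the limit of these libraries. H2-DMa had 71, 7 and 16 counts in Flox, 26, 20 and 52 in F4MKO, and 5, 3 and 44 in F4MKO+FSTL1 libraries. The groups overlapped in all 3 comparisons, and the log2 fold change of F4MKO+FSTL1 compared with F4MKO was -0.55 with a 95% interval from -2.61 to 1.51. Without F4MKO+FSTL1 replicate 3 it was -2.71 and still not called (adjusted p = 0.103 by edgeR). H2-DMb1 had 9, 2 and 4 counts in Flox, 17, 10 and 11 in F4MKO, and 1, 5 and 2 in F4MKO+FSTL1 libraries. Its F4MKO counts were above those of every other library. With no filter on low counts its log2 fold change in F4MKO+FSTL1 compared with F4MKO was -1.86 (adjusted p = 0.0461 by edgeR), and by DESeq2 it was -1.89 (adjusted p = 0.0932).

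H2-DMb2 was at 0 counts in the 3 Flox libraries, at 11, 6 and 1 in F4MKO, and at 1, 0 and 0 in F4MKO+FSTL1 libraries. Against a floor of 3 counts over the Flox group, the 18 counts of the F4MKO group stood 5.39-fold higher after scaling. The floor allows for counting error in Flox only. Error in the F4MKO counts and the spread between mice are not covered, so 5.39 is not a lower bound. F4MKO replicate 3, with 1 count, did not differ from F4MKO+FSTL1 replicate 1 in its count. Since H2-DMb1 and H2-DMb2 have stretches in common, counts of this size could have been divided between them in more than one way.

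When F4MKO+FSTL1 livers were compared with Flox livers, 0 of 6 members were called by edgeR, beside 1 gene among all tested (0.00695%). An unadjusted p under 0.05 was found for 4 of the 6 and for 1924 of all 14379 tested genes. Cd74 showed a log2 fold change of -0.67 (SE 0.16, adjusted p = 0.116), H2-Aa of -0.71 (adjusted p = 0.195) and Ciita of -1.03 (SE 0.28, adjusted p = 0.16), all by edgeR's quasi-likelihood test. Each of these 3 was lower in all F4MKO+FSTL1 libraries than in any Flox library, as were 10.7% of all tested genes. DESeq2 called 2 members, Cd74 (adjusted p = 0.0065) and Ciita (adjusted p = 0.0363). H2-Ab1 showed a log2 fold change of -0.70 and H2-Eb1 of 0.06, the latter -1.15 without F4MKO+FSTL1 replicate 1. This comparison and the F4MKO to Flox comparison share the Flox libraries.

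H2-DMa, H2-Eb1 and H2-Ab1 varied between replicate mice far more than most genes, which sets the precision of the values above. The within-group SD of log2 CPM was 1.45 for H2-DMa, 0.931 for H2-Eb1, 0.512 for H2-Ab1 and 0.324 for H2-Aa, beside a median of 0.196 over all tested genes. Outside the MHC, it was 0.228 for Cd74 and 0.387 for Ciita, the latter above H2-Aa. Among tested genes within 0.5 log2 CPM of each member's own mean level, the share with a smaller SD was 99.9% for H2-DMa, 99.6% for H2-Eb1, 98.1% for H2-Ab1 and 92.9% for H2-Aa. It was 81.1% for Cd74 and 81.8% for Ciita. H2-Aa and H2-Ab1 encode partner chains, yet the ratio of their counts was 0.371, 1.75 and 0.742 in the Flox libraries, 1.40, 1.10 and 1.06 in F4MKO, and 0.656, 1.26 and 0.488 in F4MKO+FSTL1. The F4MKO libraries were the closest to each other, and the range within Flox covered all other libraries.

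Neighbouring genes that do not belong to the class II group varied widely as well. The 15 other tested genes whose start lies within 0.5 Mb of that of H2-Aa had a median within-group SD of 0.634, and 9 of them lay above percentile 90 of all tested genes. Unlike the members above, these neighbours were not matched for abundance. The median SD of tested genes was 0.406 at the level of H2-DMa and 0.158 at that of H2-Aa. The median was 0.374 over 22 genes at 0.5 to 1 Mb, 0.25 over 51 genes at 1 to 2 Mb and 0.186 over 14 genes at 2 to 3 Mb. Counts were also low for some genes of the region that most cells use. Others within 1 Mb stood higher, such as H2-K1 (mean log2 CPM 6.43, within-group SD 0.224) and Hnrnpm (6.03 and 0.106). All genes named here were picked after their values were seen. Rps18, a ribosomal protein gene 0.336 Mb from H2-Aa, had 159 to 210 counts per library and 3.18 CPM per kb, below all 70 other ribosomal protein genes tested, whose median was 113 and lowest value 3.50. Brd2, a chromatin reader that overlaps H2-DMa, had 0 to 2 counts. The source of this spread was not tested.

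**Figure D3:**
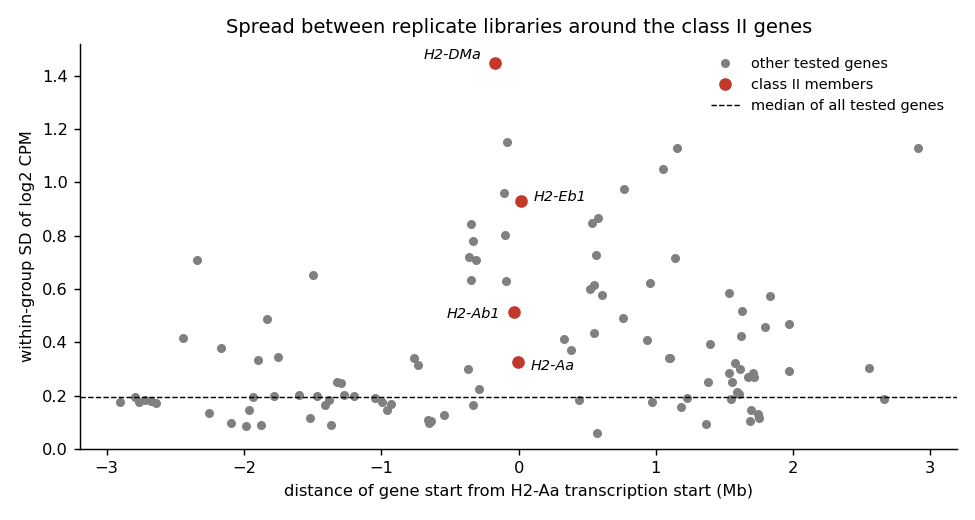
Within-group SD of log2 CPM (vertical axis) of each tested gene against the distance in Mb of its start from the transcription start of H2-Aa on chromosome 17 (horizontal axis); red points are class II members, grey points other genes, and the dashed line the median of all tested genes, 0.196. Genes within about 0.5 Mb, members and others, mostly lie above the line, with H2-DMa highest at 1.45.

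Genes that handle antigen next to the class II molecules were divided. Of 7 tested antigen-processing genes, 2 fell and 0 rose in F4MKO+FSTL1 against F4MKO livers. Such counts, here and in the lists below, can be read against 11.2% of all tested genes called lower and 21.1% lower without overlap. An unadjusted p under 0.05 was found for 5080 of 14379 genes in this comparison and for 2424 in F4MKO compared with Flox. Ctss, the cathepsin that makes the final cut of the invariant chain in antigen-presenting cells, was at 140, 106 and 111 CPM in F4MKO and at 48.2, 37.3 and 62.7 CPM in F4MKO+FSTL1 libraries (log2 fold change -1.27, adjusted p = 0.00186 by edgeR). Its groups did not overlap. Lgmn, an asparagine endopeptidase of lysosomes, showed a log2 fold change of -0.72 (adjusted p = 0.0157 by edgeR) and was not called without F4MKO+FSTL1 replicate 1 or replicate 2. The most abundant members, Ctsb and Ctsl, lysosomal cathepsins used in many cell types, had log2 fold changes of -0.32 and -0.34 and did not pass the threshold. In F4MKO compared with Flox, 0 of the 7 were called by edgeR or DESeq2 and 1 had an unadjusted p under 0.05. H2-Ob and H2-Eb2, other class II chains, were at or below 0.369 CPM in every library and were not tested.

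None of the factors that hold Ciita at the class II boxes passed both the adjusted p and the fold-change threshold. Of 7 genes for the RFX, NF-Y and CREB factors, 0 were called by edgeR or DESeq2 in F4MKO+FSTL1 compared with F4MKO. In that comparison 2 had an unadjusted p under 0.05, beside 5080 of 14379 tested genes, and the median log2 fold change of the 7 was 0.02. The most abundant, Nfyc, was at 26.5 to 32.1 CPM in the 9 libraries (log2 fold change 0.02), and Nfyb, its partner, showed a log2 fold change of 0.18 (adjusted p = 0.264 by edgeR). Rfx5, an RFX subunit named after its values were seen, was lower without overlap (log2 fold change -0.47, adjusted p = 0.0437 by edgeR) but its fold change was under 1.5. Among 8 tested genes of the interferon-gamma axis, the main inducer of Ciita outside dedicated antigen-presenting cells, 2 fell. Ifngr1, a receptor chain, was at 34.6, 34.2 and 32.4 CPM in F4MKO and at 19.1, 19.7 and 23.2 CPM in F4MKO+FSTL1 (log2 fold change -0.71, adjusted p = 0.00154 by edgeR). Irf8, a factor of dendritic cells and macrophages, showed a log2 fold change of -0.96 (adjusted p = 0.00491 by edgeR). Jak1, an abundant signalling kinase, was at a log2 fold change of -0.15 and did not pass the threshold. Ifng itself was too low to be tested.

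Co-stimulatory genes, which supply the second signal to T cells, fell beside the class II members. Of 6 tested, 5 were called lower in F4MKO+FSTL1 than in F4MKO livers, beside 11.2% of all tested genes. All 6 were lower without overlap, beside 21.1% of all tested genes. Their median log2 fold change was -1.13. Cd274, which encodes the inhibitory ligand PD-L1, showed a log2 fold change of -1.02 (adjusted p = 0.00816), Cd83, a dendritic cell maturation gene, of -1.12 (adjusted p = 0.00871) and Icosl of -1.29 (adjusted p = 0.0103), all by edgeR. Cd86 (-0.91) and Cd80 (-1.32), the ligands of CD28, were called too, but both lost the call without F4MKO replicate 1 and without F4MKO+FSTL1 replicate 2, and Cd80 also without F4MKO+FSTL1 replicate 3. In F4MKO compared with Flox 0 of the 6 were called by edgeR or DESeq2, and 1 had an unadjusted p under 0.05.

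Class I presentation, which nearly all cells use, was compared in the same way. Of 14 tested genes 0 were called lower and 1 was called higher in F4MKO+FSTL1 compared with F4MKO, with a median log2 fold change of 0.05. B2m, the class I light chain, was at 2053 to 2599 CPM over the 9 libraries (log2 fold change -0.12, adjusted p = 0.489 by edgeR). Calr, a folding chaperone, showed a log2 fold change of 0.18. H2-D1, a class I heavy chain named after its values were seen, was lower without overlap (log2 fold change -0.42, adjusted p = 0.0392 by edgeR). Its fold change was under 1.5. The gene that rose was Psmb9, an immunoproteasome subunit inside the class II region, at 1.20, 0.796 and 2.28 CPM in F4MKO and at 6.03, 4.23 and 6.21 CPM in F4MKO+FSTL1 (log2 fold change 1.94, adjusted p = 0.0346 by edgeR). Its Flox values of 5.71, 8.93 and 1.20 CPM overlapped both groups, its within-group SD was 0.962, and the call was lost without any one of F4MKO replicates 1 and 2 and the 3 F4MKO+FSTL1 libraries, with log2 fold changes from 1.66 to 2.44 over all 9 such fits.

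Markers of the cells that carry class II molecules fell in part. Of 9 tested dendritic cell markers, 4 fell in F4MKO+FSTL1 compared with F4MKO, among them Itgax, which encodes CD11c (log2 fold change -2.12, adjusted p = 0.00155), Flt3 (-1.82, adjusted p = 0.00752), a growth factor receptor of dendritic cells, and Siglech (-1.82, adjusted p = 0.0114), a gene of plasmacytoid dendritic cells, by edgeR. Siglech lost the call without F4MKO+FSTL1 replicate 2. Ccr7, the chemokine receptor of migrating dendritic cells, showed a log2 fold change of -1.22 and lost its call without 4 of the 9 libraries, F4MKO replicates 1 and 3 and F4MKO+FSTL1 replicates 1 and 2. Zbtb46, a transcription factor of classical dendritic cells that endothelium expresses too, showed a log2 fold change of 0.13. The summed level of the 10 markers was 19.7 to 21.6 CPM in Flox, 24.8 to 39.8 in F4MKO and 14.7 to 19.2 in F4MKO+FSTL1 libraries, so the F4MKO range lay above the other two. Itgax alone gave 4.90, 5.33 and 6.57 CPM of the Flox sums and 18.9, 9.84 and 9.34 CPM of the F4MKO sums. In F4MKO compared with Flox, 7 of the 9 tested markers had a positive and 2 a negative log2 fold change. Of these 9, 0 were called by edgeR and 2 by DESeq2.

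Of 11 Kupffer cell and macrophage markers 7 fell, including Adgre1, which encodes F4/80 (log2 fold change -0.96, adjusted p = 0.00207), Cd68 (-1.10, adjusted p = 0.00368) and Csf1r (-0.77, adjusted p = 0.00524), by edgeR. By F4/80 staining, the study instead reported fewer such cells in F4MKO than in control livers and more in F4MKO mice given FSTL1. The complement genes C1qb and C1qc fell by 0.88 and 0.93 on the log2 scale, and Cd5l, a Kupffer cell gene, by 1.02. The 4 that did not pass the threshold, named after their values were seen, are genes of resident Kupffer cells, with log2 fold changes of 0.51 for Timd4, 0.08 for Marco, -0.29 for Clec4f and -0.41 for Vsig4. All 8 markers of monocytes and lipid-associated macrophages fell, from Gpnmb (-2.65, adjusted p = 0.000963) and Trem2 (-2.44, adjusted p = 0.00517), scavenger genes of fatty liver, to the more general Itgam (-1.25), Lyz2 (-1.19) and Cd9 (-1.19), by edgeR. The summed macrophage level was 718 to 1120 CPM in Flox, 832 to 927 in F4MKO and 422 to 678 in F4MKO+FSTL1, and that of the monocyte list was 198 to 311, 318 to 460 and 131 to 182 CPM. In F4MKO compared with Flox, 0 of the 11 macrophage markers were called by edgeR and DESeq2 called 1. An unadjusted p under 0.05 was found for 3 of them, Cd68 (log2 fold change 0.47) and, lower in F4MKO without overlap, Timd4 (-1.26) and Marco (-1.41). Of the 8 genes of the monocyte list 1 was called by edgeR, Gpnmb (log2 fold change 1.70, adjusted p = 0.0404), 3 were called by DESeq2, and 5 had an unadjusted p under 0.05. Without Flox replicate 1, 2 or 3 or F4MKO replicate 1, edgeR called 0 of all tested genes in this comparison, so the call of Gpnmb was lost.

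B cell and T cell markers were low. Of 9 tested B cell markers 1 was called lower in F4MKO+FSTL1 than in F4MKO, beside 11.2% of all tested genes. It was Cd22, an inhibitory receptor (log2 fold change -1.24, adjusted p = 0.00595 by edgeR). Bank1, an adaptor of B cells, showed a log2 fold change of -0.37 (adjusted p = 0.399 by edgeR). The B cell sum was 13.5 to 16.5 CPM in Flox, 11.2 to 19.4 in F4MKO and 6.4 to 13.6 in F4MKO+FSTL1 libraries. Of 6 tested T cell markers 0 were called by edgeR or DESeq2 and 2 had an unadjusted p under 0.05, beside 5080 of 14379 tested genes. Cd8a and Cd3g were at 0.14 to 2.09 CPM. Of 5 pan-leukocyte genes 4 fell, namely Ptprc, which encodes CD45 (-0.92, adjusted p = 0.0033), Itgb2 (-1.20, adjusted p = 0.00239), Cd52 (-1.18, adjusted p = 0.0102) and Coro1a (-0.82, adjusted p = 0.0336), by edgeR. Coro1a lost its call without any one of F4MKO replicates 1 and 3 and F4MKO+FSTL1 replicates 1 and 2. The pan-leukocyte sum was 58.0 to 77.8 CPM in Flox, 75.9 to 112 in F4MKO and 34.6 to 54.9 in F4MKO+FSTL1.

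**Figure D4:**
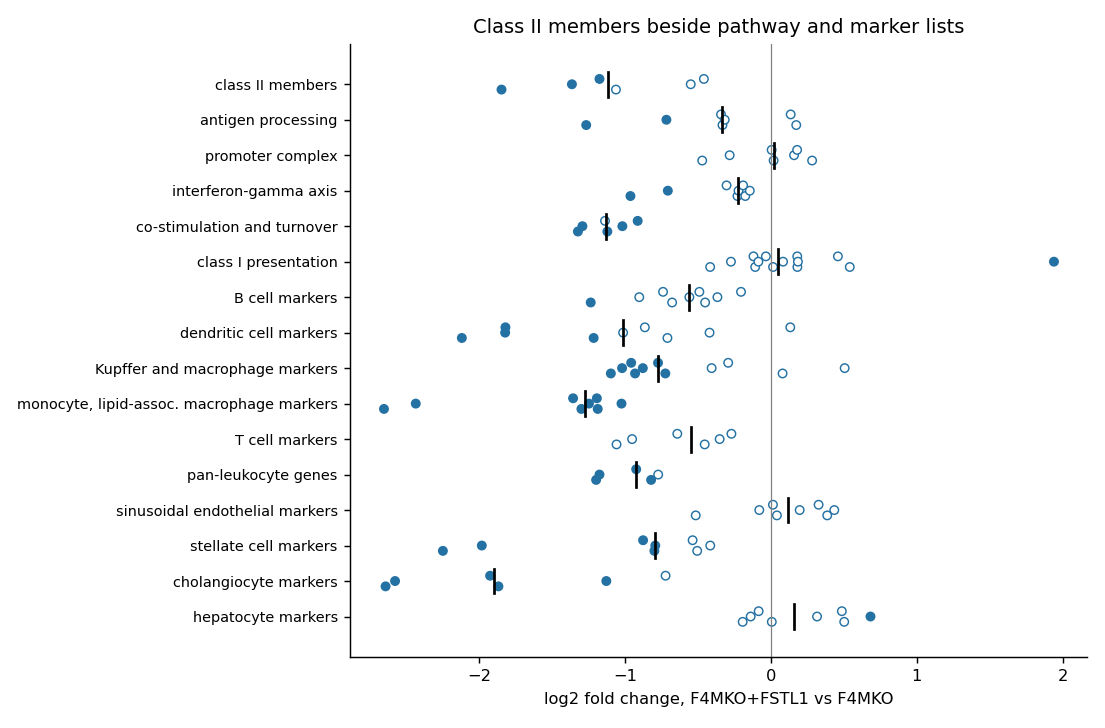
Log2 fold change in F4MKO+FSTL1 against F4MKO livers (horizontal axis) of every tested gene of the class II members and of 15 pathway and marker lists (rows); filled points passed the threshold and black ticks are list medians. The class II median is -1.12, beside -1.13 for co-stimulation, -1.01 for dendritic, -1.27 for monocyte and lipid-associated macrophage and -0.924 for pan-leukocyte genes. Class I, promoter complex and sinusoidal endothelial medians are 0.049, 0.018 and 0.119.

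Genes listed as markers of stellate cells and cholangiocytes fell too, and whole-liver RNA does not show which cells carried them. Of 8 stellate cell markers 5 fell in F4MKO+FSTL1 compared with F4MKO, with the collagen genes Col1a1 (-2.25, adjusted p = 0.00152) and Col3a1 (-1.98, adjusted p = 0.000751) ahead of Dcn (-0.79), Lrat (-0.80) and Pdgfrb (-0.88), by edgeR. Pdgfrb lost its call without F4MKO+FSTL1 replicate 2. By QPCR, the study instead reported fibrosis-related genes as lower in F4MKO livers and higher again with FSTL1. Of 6 cholangiocyte markers 5 fell, with Spp1 (-2.64), a secreted phosphoprotein, Epcam (-2.58), Krt7 (-1.93), Krt19 (-1.87) and Cdh1 (-1.13). Spp1 and Epcam were also higher in F4MKO than in Flox livers (log2 fold changes 2.05 and 2.01, adjusted p = 0.0404 and 0.0359 by edgeR), and both calls were lost without Flox replicate 1, 2 or 3 or F4MKO replicate 1. The cholangiocyte sum was 81.5 to 122 CPM in Flox, 198 to 502 in F4MKO and 60.1 to 80.3 in F4MKO+FSTL1, and the stellate sum 422 to 489, 548 to 688 and 281 to 387 CPM. Spp1 alone gave 397, 143 and 203 CPM of the cholangiocyte sum in F4MKO libraries, and Cdh1 a further 72.5, 37.9 and 43.1 CPM.

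Among sinusoidal endothelial and hepatocyte genes 1 passed the threshold. Of 8 endothelial markers 0 were called by edgeR or DESeq2 in F4MKO+FSTL1 compared with F4MKO, and 2 had an unadjusted p under 0.05, beside 5080 of 14379 tested genes. The endothelial sum was 290 to 362 CPM in Flox, 229 to 297 in F4MKO and 269 to 322 in F4MKO+FSTL1. Stab2, a scavenger receptor, showed a log2 fold change of 0.04, and Clec4g, a lectin, of 0.43. Of 8 hepatocyte genes 1 rose, Serpina1a, which encodes an alpha-1 antitrypsin (log2 fold change 0.68, adjusted p = 0.00981 by edgeR), and it was not called without F4MKO replicate 1. Alb and Apoa1, the most abundant of them, had log2 fold changes of -0.08 and 0.50 (adjusted p = 0.791 and 0.052 by edgeR). The part of these cell markers in the class II values was not tested beyond the ratios that follow.

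Set against Ptprc in the same library, the F4MKO ratios of Cd74 and Ciita were above those of all other libraries. The ratio of Cd74 to Ptprc was 18, 13.3 and 15 in Flox, 18.8, 19.8 and 18.8 in F4MKO, and 14.6, 14.3 and 13.4 in F4MKO+FSTL1 libraries. The F4MKO ratios lay close together, and the mean log2 ratio differed by -0.44 between F4MKO+FSTL1 and F4MKO (two-sided exact permutation p = 0.1, the smallest that 3 against 3 mice allow), beside a change of -1.36 in Cd74 itself. The ratio of Ciita to Ptprc was 0.244, 0.219 and 0.209 in Flox, 0.329, 0.321 and 0.247 in F4MKO, and 0.16, 0.123 and 0.183 in F4MKO+FSTL1. It separated all 3 groups, F4MKO from Flox only narrowly (0.247 against 0.244). The difference between F4MKO+FSTL1 and F4MKO was -0.95 (two-sided exact permutation p = 0.1, n = 3). For H2-Aa the difference was -0.24, with overlapping groups (two-sided exact permutation p = 0.6, n = 3).

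The order depended on the gene in the denominator. Against Itgax, which fell more than the class II members, the Cd74 ratio was 53.7, 37.5 and 39.3 in Flox, 24.2, 36.3 and 37.7 in F4MKO, and 41.3, 54.4 and 65.8 in F4MKO+FSTL1 libraries. Here the mean of F4MKO+FSTL1 was the highest, by 0.72 on the log2 scale over F4MKO (two-sided exact permutation p = 0.1, n = 3). The F4MKO+FSTL1 libraries overlapped those of Flox. Against the summed Kupffer and macrophage markers the Cd74 ratio was lower in F4MKO+FSTL1 than in F4MKO by a log2 difference of -0.57, and the Ciita ratio by -1.08 (two-sided exact permutation p = 0.1 for each, n = 3). For H2-Aa this difference was -0.37 (two-sided exact permutation p = 0.5, n = 3). Against Itgax, it was 0.92 for H2-Aa and 0.21 for Ciita (two-sided exact permutation p = 0.1 and 0.7, n = 3). The ratio tests printed are a part of 27, from 3 members, 3 denominators chosen after the values were seen and 3 comparisons. No test could pass a threshold of 0.05 in this design.

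**Figure D5:**
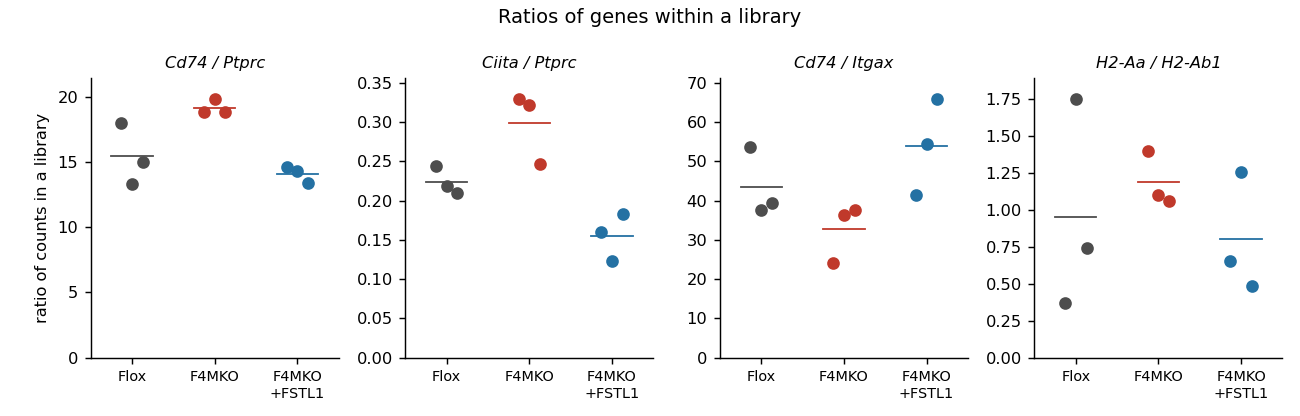
Ratio of 2 genes within a library (vertical axis, linear from 0) in the 3 groups, for Cd74 over Ptprc, Ciita over Ptprc, Cd74 over Itgax and H2-Aa over H2-Ab1; points are libraries, replicates 1 to 3 from left to right, and lines are means of 3 mice. Ciita over Ptprc separates the 3 groups, F4MKO from Flox only narrowly. Cd74 over Itgax has its highest mean in F4MKO+FSTL1, with libraries that overlap Flox, and H2-Aa over H2-Ab1 runs from 0.371 to 1.75 within Flox.

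The genes whose pattern over the 9 libraries was most like the mean of the 6 tested members were Adap1, Spn, Rnase6, Mmp11 and Sele. Their root mean square difference from the centred mean log2 CPM of the members was 0.105 for Adap1, 0.148 for Spn, 0.169 for Rnase6, 0.175 for Mmp11 and 0.176 for Sele. Among the members themselves this difference was smallest for Cd74 (0.177), then Ciita (0.331), H2-Ab1 (0.373), H2-Aa (0.504) and H2-Eb1 (0.692), and largest for H2-DMa (0.969). Cd74 was therefore the member closest to the mean of the group, and at least 5 genes outside the group lay as close to that mean. The list was limited to 5 genes, so this is not a full count. Adap1 was at 2.18, 1.39 and 1.91 CPM in Flox, 3.71, 2.09 and 2.36 in F4MKO, and 1.12, 0.721 and 1.46 in F4MKO+FSTL1 libraries. Since they were chosen for this pattern, their log2 fold changes in F4MKO+FSTL1 compared with F4MKO, from -1.28 for Mmp11 to -1.66 for Sele, are a description only.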

How the data were processed

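Liver RNA of 9 mice was sequenced as 150 bp paired-end reads on BGIseq500. Per the methods and the submitters' processing notes, the authors trimmed reads with Trim Galore 0.6.7, mapped them to mm10 with HISAT2 2.2.1 and counted them with featureCounts 2.0.1. The deposited values are raw whole-number counts for each gene. The gene annotation was not given in the sources used here. Symbols were placed on GENCODE gene models of GRCm38, and promoter stretches came from RefSeq.

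Tests used edgeR 4.0.16 in R 4.3.3 (filterByExpr with a minimum count of 10 and total of 15, TMM factors from 0.927 to 1.17, 1 quasi-likelihood fit of all 9 libraries). CPM used TMM library sizes, and log2 CPM a prior count of 2. Alternatives were DESeq2 1.42.0, RLE size factors, no filter, only the 6 libraries compared, a replicate block, other thresholds and each library left out. Named genes are all members, up to 5 called genes and the 2 most abundant of each list, and the 5 most similar patterns. One gene that this rule names is not reported here. The members and lists were chosen with earlier results of these data known. The labels do not say more of the replicates than that each is a separate sample, so p-values measure the spread between these samples. No pair of replicates agreed within sampling noise. On simulated counts of 14379 genes for F4MKO+FSTL1 compared with F4MKO, 87% of genes changed by 1.5 on the log2 scale and 82% of those changed by 2 were called.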

Additional observations from a re-analysis of the deposited data

How the results depend on the processing

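Ciita, Cd74 and H2-Aa were called lower in F4MKO+FSTL1 than in F4MKO livers under every alternative except the test against a fold change of 1.5, which did not call H2-Aa. The number of members called in F4MKO compared with Flox moved from 0 to 1 with DESeq2 and to 2 with no filter on low counts. In F4MKO+FSTL1 compared with Flox it moved from 0 to 2 with DESeq2 and to 3 with no filter. With the replicate number as a block, 1 member was called in F4MKO compared with Flox (Cd74, adjusted p = 0.0371 by edgeR), and the log2 fold change of H2-Eb1 in F4MKO+FSTL1 compared with Flox became -0.26. Deviations of same-numbered libraries correlated between -0.0985 and 0.304. The correlations were 0.169, 0.304 and 0.206 for replicate 3, and those of replicates 1 and 2 ran from -0.0985 to 0.111. Such values cannot decide whether the numbers pair the mice or share a batch, and the labels do not say.

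Directions that turned were those of uncalled members. With 1 library left out, the log2 fold change in F4MKO compared with Flox ran from -0.54 to 0.21 for H2-Ab1 and from -0.64 to 1.36 for H2-DMa, which turned without Flox replicate 1 or F4MKO replicate 1 or 2. In F4MKO+FSTL1 compared with Flox it ran from -2.82 to 0.81 for H2-DMa and from -1.15 to 0.44 for H2-Eb1. The cause was not tested.

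Calls over all genes in F4MKO compared with Flox went from 39 to 338 with DESeq2, 478 with no filter, 134 with the block, 11 with only the 6 libraries, 0 with the test against 1.5-fold, and 0 to 100 with 1 library left out. For F4MKO+FSTL1 against F4MKO they went from 2070 to 620 with the test against 1.5-fold and 1295 to 2216 with 1 library left out, the lowest without F4MKO+FSTL1 replicate 2. For F4MKO+FSTL1 against Flox they went from 1 to 284 with DESeq2, 379 with no filter, 15 with the block, and 0 to 101 with 1 library left out, the highest without F4MKO+FSTL1 replicate 3.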
